A study of Mus musculus with 4 samples.

Results

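The Klk1 cluster is the group of glandular (tissue) kallikrein genes, and 8 of its members were described here: Klk1, Klk1b1, Klk1b4, Klk1b5, Klk1b9, Klk1b22, Klk1b26 and Klk1b27. They were matched to probes by the gene symbol in the platform's annotation, which gave 10 probes of 7 genes among 25697 probes in all. Klk1b5, Klk1b9 and Klk1b27 each had 2 probes, Klk1, Klk1b1, Klk1b22 and Klk1b26 had 1 each, and Klk1b4 had none under that symbol. The tissue is labelled thyroid, taken from Balb/c mice of a series on iodine-131, a beta-emitting iodine isotope that the thyroid takes up. The labels give absorbed doses of 0 Gy, 0.85 Gy, 8.5 Gy and 17 Gy, a time of 24 h for every sample, and 1 array at each dose. No group had a replicate, so no difference below has a p-value, an SD or a replicate check, and dose and the single tissue sample hybridised at that dose cannot be told apart. The labels used here say nothing of the age and sex of the mice or of how many animals stand behind a sample.

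Tissue kallikreins are secreted serine proteases. Klk1, true tissue kallikrein, cleaves kininogen to release kinins, peptides that widen vessels through bradykinin receptors. In the mouse the family was expanded by repeated duplication, and the Klk1b genes encode close relatives, several of which bind or process growth factors and hormones. Their best known site of expression in the mouse is the duct system of the submandibular salivary gland, where androgens raise many of them, and Klk1 is also made in pancreas and kidney. The salivary glands lie near the thyroid in the neck.

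In the mouse gene table of RefSeq, 14 protein-coding Klk1 and Klk1b genes and 10 Klk1b pseudogenes lie together on chromosome 7. Ordered by the start of their promoter windows, the coding genes run Klk1b8, Klk1b1, Klk1b9, Klk1b11, Klk1b26, Klk1b27, Klk1b21, Klk1b22, Klk1b16, Klk1b24, Klk1b3, Klk1b4, Klk1b5 and Klk1. Klk1 and Klk1b5, both detected at 17 Gy below, are neighbours at one end of this order, with Klk1b4 and Klk1b3, neither of which had a probe, next to them. Klk1b27, also detected, lies among genes whose probes were at background.

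All 8 members matched an entry in the RefSeq promoter table (build GRCm38.p6), which gives 250 bases before and 50 after each gene's listed start. The windows of the 3 genes that stood apart on the 17 Gy array are shown because they let the likeness of the family be read directly. All are on the plus strand, and capitals mark a word of 9 bases, GAGAATGAG, that occurs once in each member's window, and the hexamer TTTAAA.
Klk1, chr7:44225110-44225409: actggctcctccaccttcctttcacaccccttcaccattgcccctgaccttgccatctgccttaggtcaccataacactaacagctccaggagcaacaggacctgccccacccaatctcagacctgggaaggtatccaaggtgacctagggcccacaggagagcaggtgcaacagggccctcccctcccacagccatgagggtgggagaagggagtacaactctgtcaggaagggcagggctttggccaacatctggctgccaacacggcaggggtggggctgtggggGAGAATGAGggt
Klk1b5, chr7:44216224-44216523: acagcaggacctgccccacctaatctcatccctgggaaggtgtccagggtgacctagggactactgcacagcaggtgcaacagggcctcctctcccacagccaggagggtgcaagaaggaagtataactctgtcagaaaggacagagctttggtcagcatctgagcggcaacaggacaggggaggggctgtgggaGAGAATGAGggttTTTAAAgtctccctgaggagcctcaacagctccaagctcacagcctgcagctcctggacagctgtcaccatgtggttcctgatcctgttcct
Klk1b27, chr7:44052040-44052339: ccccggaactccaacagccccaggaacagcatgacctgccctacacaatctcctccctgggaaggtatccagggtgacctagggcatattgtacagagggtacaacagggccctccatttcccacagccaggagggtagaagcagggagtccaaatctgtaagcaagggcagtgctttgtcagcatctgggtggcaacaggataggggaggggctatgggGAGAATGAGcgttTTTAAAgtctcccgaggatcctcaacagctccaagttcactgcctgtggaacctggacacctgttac

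The listed start of Klk1 lies further upstream than that of its relatives. The shared word ended 47 bases after the listed start in Klk1, and 46 and 21 bases before it in Klk1b5 and Klk1b27. The hexamer TTTAAA was searched on both strands, on which it reads the same. It stood in 7 of the 8 members' windows, all but that of Klk1, and in 6 of 6 windows of the other Klk1b genes, against 13.2% of the 32851 windows in the table. Its first base lay between 17 and 48 bases before the listed start. The window of Klk1 ended 3 bases after the shared word, before the place where the others carry the hexamer. The letters TATAAA, with the reverse complement TTTATA, were in 0 of the 8 windows and in 13.6% of all windows. AGAACA, the half-site letters of steroid receptor elements, with the reverse complement TGTTCT, was in 0 of the 8 members' windows, in 2 of the 6 others and in 19.0% of all windows.

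The 60 bases that end at the shared word are shown for all 8 members, to set those with signal beside those without. Capitals mark bases that differ from Klk1 in a pairwise alignment, and bases missing from a gene leave no mark.
Klk1: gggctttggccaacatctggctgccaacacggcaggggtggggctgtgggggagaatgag
Klk1b5: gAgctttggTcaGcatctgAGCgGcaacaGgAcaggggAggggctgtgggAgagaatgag
Klk1b27: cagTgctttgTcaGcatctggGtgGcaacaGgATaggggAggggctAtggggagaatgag
Klk1b22: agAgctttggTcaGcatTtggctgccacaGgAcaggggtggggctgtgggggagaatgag
Klk1b1: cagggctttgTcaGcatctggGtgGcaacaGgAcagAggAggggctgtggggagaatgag
Klk1b4: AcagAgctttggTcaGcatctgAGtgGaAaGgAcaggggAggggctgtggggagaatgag
Klk1b9: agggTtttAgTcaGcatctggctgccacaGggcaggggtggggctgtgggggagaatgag
Klk1b26: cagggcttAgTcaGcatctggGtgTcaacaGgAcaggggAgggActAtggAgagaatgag

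In this stretch Klk1b9 differed from Klk1 at 5 bases and Klk1b22 at 6, while Klk1b5 differed at 11 and Klk1b27 at 10. Over the whole windows, local alignments between 2 members covered 204 to 299 columns and were 79.0% to 91.3% identical, with a median of 84.6% over 28 pairs. The alignments with Klk1 were 85.7% identical for Klk1b9, 85.0% for Klk1b5, 81.2% for Klk1b22, 80.3% for Klk1b27 and 79.0% for Klk1b1. The windows most like each other among the members were those of Klk1b4 and Klk1b5 at 91.3% and of Klk1b9 and Klk1b22 at 90.4%. Members aligned with the windows of Klk4 to Klk15, the kallikrein-related peptidases, over a median of 22.0 columns. The member with the window closest to that of Klk1, Klk1b9, was at background on every array. Klk1b5, nearly as close, had 1 of 2 probes detected at 17 Gy. These figures describe promoters. The sequences of the probes and transcripts were not used here, so how many relatives each probe can bind was not tested.

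**Figure D1:**
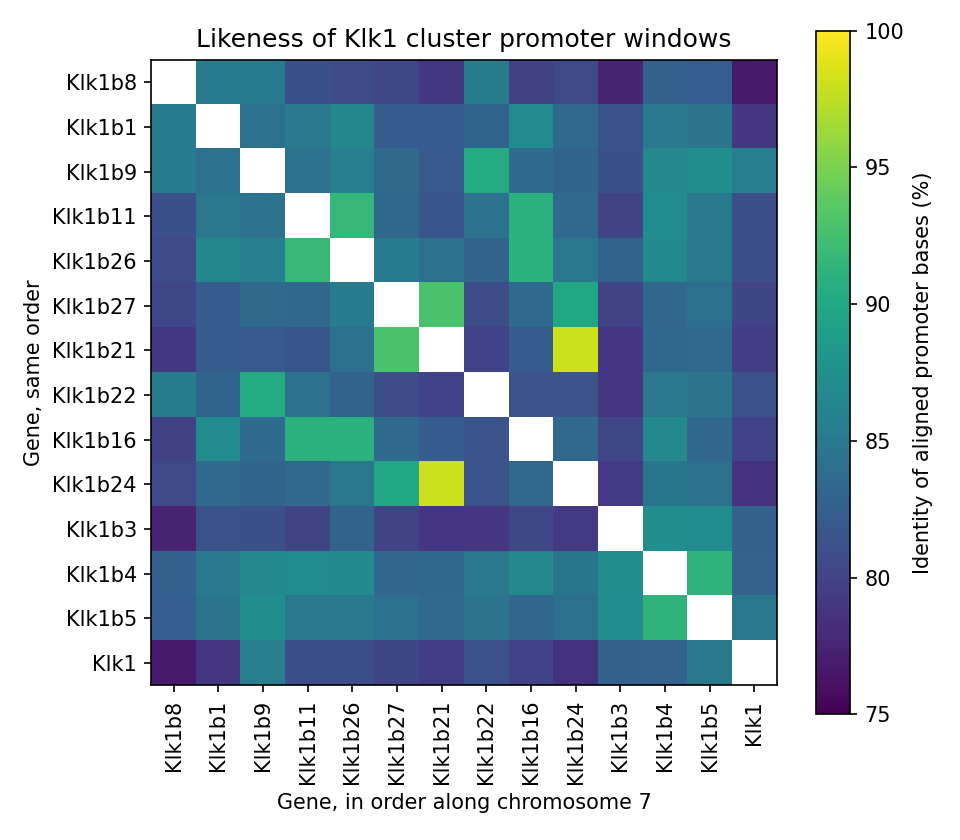
Identity of the aligned bases (colour, percent) between the promoter windows of the 14 protein-coding genes of the cluster, in their order along chromosome 7 on both axes, with the diagonal left white. Pairs of the 8 listed members lie between 79.0% and 91.3%, and the most alike pair shown, Klk1b21 and Klk1b24, is at 98.1%.

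The intensities behind the expression values are means over beads, on the linear scale, as deposited before normalization. A probe was called detected on an array where its deposited detection p, on this platform a measure of how many negative controls were as bright, was under 0.01. The lowest intensity that met this was 103 at 0 Gy and 104 at 17 Gy, but 122 at 0.85 Gy and 115 at 8.5 Gy, so the same intensity can be detected on one array and not on another. Between 38.8% and 40.9% of probes were detected on an array. Few thyroid follicle genes were detected on any array: of 13 genes of the thyrocyte marker list with a probe, 2 were detected at each dose, the thyrotropin receptor gene Tshr and Hhex, and the thyroglobulin gene Tg was not. Of 5 brown fat genes with a probe, 4 were detected at 0 and 0.85 Gy and 5 at 8.5 and 17 Gy, with intensities of the uncoupling protein gene Ucp1 between 8411 and 16709. In such bulk tissue, more cells of a type and more RNA per cell cannot be told apart.

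Klk1 was at background on the arrays at 0, 0.85 and 8.5 Gy and well above it at 17 Gy. Its single probe had an intensity of 88 at 0 Gy, 93 at 0.85 Gy, 89 at 8.5 Gy and 571 at 17 Gy. Its detection p was 0.316, 0.874, 0.929 and 0 in that order. The 17 Gy array thus stood alone, and the other arrays could not be ordered among themselves.

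Klk1b5 encodes a glandular kallikrein and is the neighbour of Klk1. One of its probes read 81 at 0 Gy, 99 at 0.85 Gy, 104 at 8.5 Gy and 281 at 17 Gy, with detection p of 0.821, 0.541, 0.142 and 0. Its other probe read 89, 98, 93 and 85 in the same order and was not detected on any array, with a detection p of 0.739 at 17 Gy. The 2 probes of this gene therefore disagreed on the 17 Gy array.

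Klk1b27, another glandular kallikrein gene, behaved likewise. One probe read 80 at 0 Gy, 100 at 0.85 Gy, 93 at 8.5 Gy and 241 at 17 Gy, and was detected at 17 Gy with a detection p of 0. The other read 77, 103, 99 and 94 and was not detected on any array, with a detection p of 0.16 at 17 Gy. Since 1 of 2 probes carried the signal in both genes and the family's members are close relatives, the member that gave the signal at these probes is uncertain.

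Klk1b22, whose product is known as EGF-binding protein A, passed the detection threshold at 17 Gy by a narrow margin. Its probe read 97 at 0 Gy, 114 at 0.85 Gy, 101 at 8.5 Gy and 104 at 17 Gy, with detection p of 0.044, 0.0547, 0.251 and 0.00764. The intensity at 17 Gy was the lowest that could pass on that array, and the brightest reading, at 0.85 Gy, did not pass because the background there was higher. This probe did not separate the 17 Gy array from the others.

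The remaining members were not detected on any array. Klk1b9, EGF-binding protein C, read 101 at 0 Gy, 111 at 0.85 Gy, 107 at 8.5 Gy and 98 at 17 Gy at one probe, with a lowest detection p of 0.0164 at 0 Gy. At its other probe it read 88, 97, 99 and 89. Klk1b1 read 83 at 0 Gy, 91 at 0.85 Gy, 101 at 8.5 Gy and 86 at 17 Gy. Klk1b26, which encodes an enzyme that can convert prorenin to renin, read 78, 92, 95 and 96 in that order, and its detection p at 17 Gy was 0.0994. A further probe, named Egfbp2 on the platform, carries a symbol that RefSeq lists as a synonym of Klk1b26. It also read 96 at 17 Gy, against 86, 92 and 93 at the lower doses, and was not detected. At this depth of signal an intensity in the range of the negative controls gives only a bound and does not show absence of the transcript.

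**Figure D2:**
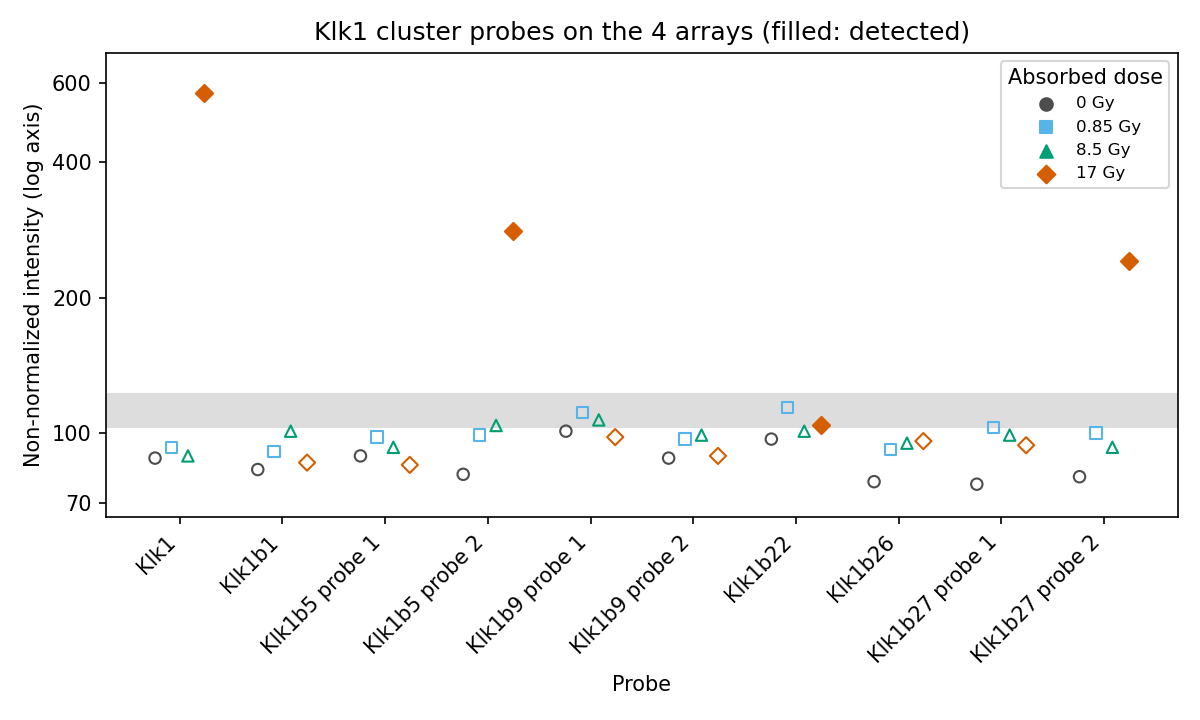
Non-normalized intensity (log axis) of each of the 10 probes on the 4 arrays, filled where detected. The grey band spans the lowest detected intensities of the arrays, 103 to 122. Klk1, 1 probe of Klk1b5 and 1 of Klk1b27 lie above the band at 17 Gy, at 571, 281 and 241, while the open symbols lie at or below 114.

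Differences between arrays were taken on the log2 scale after background correction and quantile normalization, with an offset of 16 added before the log. No member could be compared at 0.85 or 8.5 Gy against 0 Gy, because none of the 10 probes was detected on any of these 3 arrays. Over all probes compared, there were 2.36% at least 2-fold higher and 3.64% lower at 0.85 Gy, and 3.14% and 3.26% at 8.5 Gy.

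At 17 Gy, 4 of the 10 probes were detected, a share not above the 40.9% of all probes detected there. Of these 4, the only ones that could be compared with the 0 Gy array, 3 were at least 2-fold above it and 0 were at least 2-fold below it. Over the 10954 probes detected on at least 1 of these arrays, 0.886% were at least 2-fold higher and 0.429% lower. The 4 members' probes that could be compared passed the detection threshold only on the 17 Gy array, so a positive direction among them follows from that choice and is given as a description. Over all 10 probes, detected or not, the median log2 difference was 0.25, and over all 25697 probes it was 0.00. The cluster's median fell between the Klk1b22 probe, at 0.17, and the undetected probe of Klk1b27, at 0.34, both at or near background. It does not show a shift of the cluster as a whole.

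The normalized log2 level of Klk1 was 9.06 at 17 Gy against 4.45 at 0 Gy, a difference of 4.61. Because the 0 Gy value lay at background, the fold was set against the lowest normalized value of a detected probe on the 0 Gy array. On this background-corrected scale Klk1 was at least 15.1-fold higher at 17 Gy. That bound holds for these settings only: the ratio of the intensities as deposited, background included, was 6.49. For the detected probe of Klk1b5 the levels were 7.78 and 4.27, at least 6.25-fold higher on the same scale, with a ratio of deposited intensities of 3.47. For that of Klk1b27 they were 7.44 and 4.26, at least 4.94-fold higher on that scale, with a ratio of 3.01. Klk1b22 lay at 5.01 and 4.85, a log2 difference of 0.17, under the bound, so no fold is given.

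The same 3 probes stood apart from the other irradiated arrays. Against 0.85 Gy the bounds on the background-corrected scale equalled those against 0 Gy to the digits given, while the ratios of deposited intensities were 6.14 for Klk1, 2.84 for Klk1b5 and 2.41 for Klk1b27. Among 11039 probes in that comparison, 3.32% were at least 2-fold higher and 1.78% lower. Against 8.5 Gy the bounds on that scale were 16.5-fold for Klk1, 6.82-fold for Klk1b5 and 5.38-fold for Klk1b27, and the ratios of deposited intensities were 6.42, 2.70 and 2.59. In that comparison 2.98% of 11360 probes were at least 2-fold higher and 2.98% lower. These comparisons share the 17 Gy array, so they are not independent of the one with 0 Gy, and the bounds depend on the floor of each array rather than on the probe's own reading there. Without background correction the log2 difference of Klk1 at 17 Gy against 0 Gy was 2.68 in place of 4.61, that of Klk1b5 1.77 in place of 3.51 and that of Klk1b27 1.54 in place of 3.19.

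**Figure D3:**
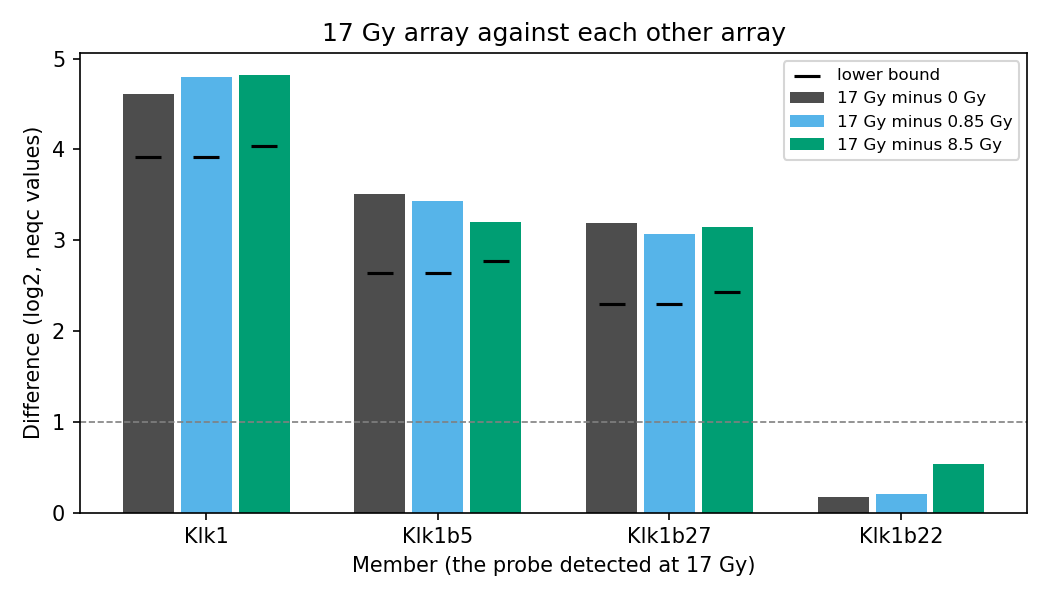
Log2 difference of the 17 Gy array minus each other array (bars) for the 4 members' probes detected at 17 Gy, with the lower bound on the background-corrected scale as a black line and 2-fold as a dashed line. Klk1, Klk1b5 and Klk1b27 lie above 2-fold in all 3 comparisons, their bounds included, and Klk1b22 lies below it and has no bound.

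Of the other Klk1b genes, Klk1b8, Klk1b11, Klk1b16, Klk1b21 and Klk1b24 had 7 probes between them and Klk1b3 had none. None of the 7 was detected on any array. Their intensities at 17 Gy ran from 82 to 99, with the highest at 1 probe of Klk1b11, whose detection p was 0.0408. The Klk4 to Klk15 genes, proteases known from skin, brain and other tissues whose genes lie on the same chromosome, had 14 probes of 11 genes. Klk8, neuropsin, was detected on every array, with 104 at 0 Gy, 134 at 0.85 Gy, 139 at 8.5 Gy and 121 at 17 Gy, and its log2 difference at 17 Gy against 0 Gy was 0.45. Klk7, a protease of the stratum corneum, was detected at 0 Gy at an intensity of 104 and read 102 at 17 Gy. Signal that separated the 17 Gy array was therefore seen at probes of Klk1, Klk1b5 and Klk1b27 and at no other kallikrein probe on the platform's list.

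The partners of tissue kallikrein in the kinin system were described in the same way. Of 14 listed genes 12 had a probe, and 6 were detected on each array. At 17 Gy against 0 Gy, 0 of their 9 detected probes were at least 2-fold higher and 0 lower. Over all probes compared, 0.886% were higher and 0.429% lower, so counts of 0 among so few probes do not set these genes apart. The kininogen gene Kng1, which encodes the substrate of kallikrein, read 1616 at 0 Gy, 2512 at 0.85 Gy, 3319 at 8.5 Gy and 1456 at 17 Gy at its brightest probe. Its normalized log2 difference against 0 Gy was 0.23 at 0.85 Gy, 0.78 at 8.5 Gy and -0.25 at 17 Gy. A further probe of Kng1 gave 0.66, 0.86 and 0.15, and the third was not detected.

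Kng2, the second mouse kininogen gene, read 395 at 0 Gy, 969 at 0.85 Gy, 1466 at 8.5 Gy and 364 at 17 Gy. It was 2.14-fold higher at 0.85 Gy and 3.62-fold higher at 8.5 Gy than at 0 Gy, and its log2 difference at 17 Gy was -0.22. In the authors' normalized values its log2 differences were 0.95, 1.66 and -0.18, so that at 0.85 Gy fell short of 2-fold. The second probe of Kng2 was not detected on any array. The levels of Kng2 at its detected probe at 0.85 and 8.5 Gy lay above those at 0 and 17 Gy, an order that the kallikrein probes, at background at 0, 0.85 and 8.5 Gy alike, did not share. Kng1 and Kng2 are close relatives, so which of them gave the signal is uncertain.

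The receptor genes Bdkrb1 and Bdkrb2 were not detected on any array, with intensities at 17 Gy of 85 at both. Klkb1, plasma kallikrein, which is no close relative of the tissue kallikreins, was not detected either and read 81 at 17 Gy. Among the peptidases that degrade kinins, Mme (neprilysin) was detected throughout at 319, 311, 357 and 329 in order of dose, and Ece1 at 741, 781, 648 and 662. Dpp4, a dipeptidyl peptidase, read 179, 146, 136 and 166, with log2 differences against 0 Gy of -1.09 at 0.85 Gy, -1.19 at 8.5 Gy and -0.31 at 17 Gy. In the authors' normalized values these differences were -0.65, -0.7 and -0.2, all short of 2-fold.

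Some genes of salivary secretion were high on the same array as the kallikrein probes. Of 18 genes of the salivary secretory list with a probe, 8 were detected at 17 Gy, against 2 at 0 Gy and 1 each at 0.85 and 8.5 Gy. In probes, 10 of 28 were detected at 17 Gy, a share not above the 40.9% of all probes detected there. Detection alone therefore did not set the list apart from all probes on that array. Between 17 and 0 Gy 7 of the 18 genes were at least 2-fold higher and 0 lower, and 10 of the 18 were not detected at 17 Gy. Of the list's 10 probes compared, 9 were at least 2-fold higher, against 0.886% of all probes compared. All 10 were detected at 17 Gy and 2 at 0 Gy. For most of them a positive direction therefore follows from the detection filter and is given as a description. The list was also chosen with earlier results of these data known. The summed intensity above background over the list's 28 probes was 15760 at 17 Gy and 526 to 847 on the other arrays. The brightest probe gave most of the sum on those arrays, with 875 at 0 Gy, 623 at 0.85 Gy and 537 at 8.5 Gy. At 17 Gy the brightest was that of Scgb2b27, which read 106, 96, 109 and 3858 in order of dose and was also detected at 0 Gy. Scgb1b27, a secretoglobin gene, read 89, 96, 98 and 3482 in order of dose, and the prolactin-induced protein gene Pip 88, 93, 103 and 1241. Not every salivary marker was present: the markers of the submandibular duct with a probe, Egf, Tgfa, Smr2 and Smr3a, were not detected at 17 Gy, where the highest of their intensities was 97. Of these, Egf was detected on another array, 8.5 Gy, at an intensity of 133, and the others on none. The part of salivary tissue in the kallikrein signal was not tested.

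Markers of pancreas and kidney, other tissues that make Klk1, and of muscle were also read. For scale, 38.8% to 40.9% of all probes were detected on an array. On the 17 Gy array 1 of the 10 pancreas genes that had a probe was detected, the amylase gene Amy2a5. One of its probes was detected on every array, at 125, 170, 185 and 137, and its other probe on none. Of 7 kidney tubule genes 1 was detected at 17 Gy, Slc12a3. One of its probes was detected on every array, at 318, 427, 286 and 301, and its other probes on none. Skeletal muscle genes stood above background on another array, 8.5 Gy, where 11 of 11 were detected and the kallikrein probes were not. Muscle genes also differed between 17 and 0 Gy: 6 of the 11 were detected at 17 Gy, 1 at 0 Gy and 2 at 0.85 Gy. Of the 7 muscle probes compared between 17 and 0 Gy, 5 were at least 2-fold higher, against 0.886% of all probes compared. Their median log2 difference was 1.21, and the highest intensity of a muscle probe at 17 Gy was 191. All 7 were detected at 17 Gy and 1 at 0 Gy, so for most a positive direction follows from the detection filter. In the authors' normalized values the differences were 1.23 for Acta1 and 1.12 for Atp2a1, but 0.77 for Pvalb, 0.57 for Tnni2 and 0.5 for Tnnc2. The parts of pancreas, kidney and muscle in the kallikrein values were not tested.

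**Figure D4:**
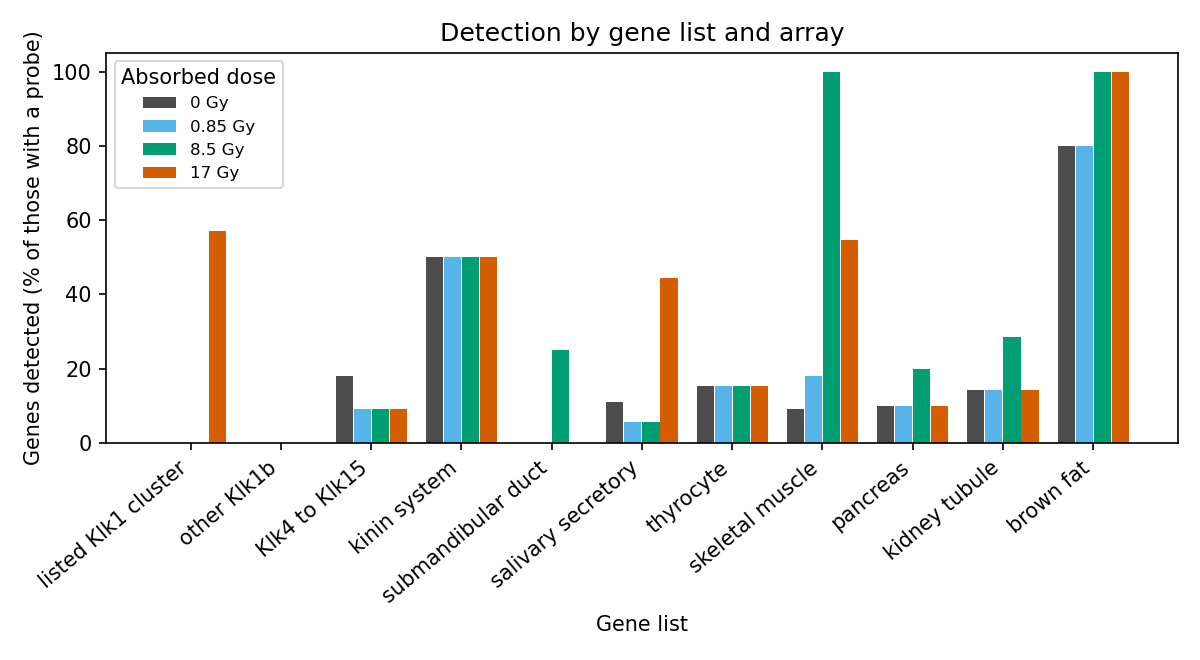
Share of genes detected (percent of those with a probe) in each gene list on each array, with 1 bar per dose. The listed Klk1 cluster has 4 of 7 genes detected at 17 Gy and 0 on the other arrays, the salivary secretory list has 8 of 18 at 17 Gy, and the muscle list has 11 of 11 at 8.5 Gy. Over all probes, 38.8% to 40.9% were detected on an array. In probes rather than genes, the cluster had 4 of 10 detected at 17 Gy, a share not above that of all probes there.

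The probes whose profile over the 4 arrays was most like that of Klk1 were found by the Euclidean distance between log2 values centred on each probe's mean. Among named probes outside the family that were detected on at least 1 array, the 8 nearest belonged to 6 genes. The nearest was a probe of the major urinary protein gene Mup5, at a distance of 0.65, and it read 94, 102, 99 and 415 in order of dose. Mucl2, a mucin-like gene, was at 0.73, with 90, 102, 104 and 1065. Smgc, a salivary mucin gene of the neonatal submandibular and the adult sublingual gland, was at 0.98 and Pip at 1.01. The 2 probes of Prol1, a proline-rich salivary protein gene, were at 1.06 and 1.32, a second probe of Mup5 at 1.59 and Wfdc12, a protease inhibitor gene, at 1.75. The members Klk1b5 and Klk1b27 lay at 1.24 and 1.41, so 5 probes outside the family were nearer to Klk1 than either, and Klk1b22 was at 3.86. With 4 arrays of which 1 stands apart, probes high on that array alone lie near each other by construction.

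**Figure D5:**
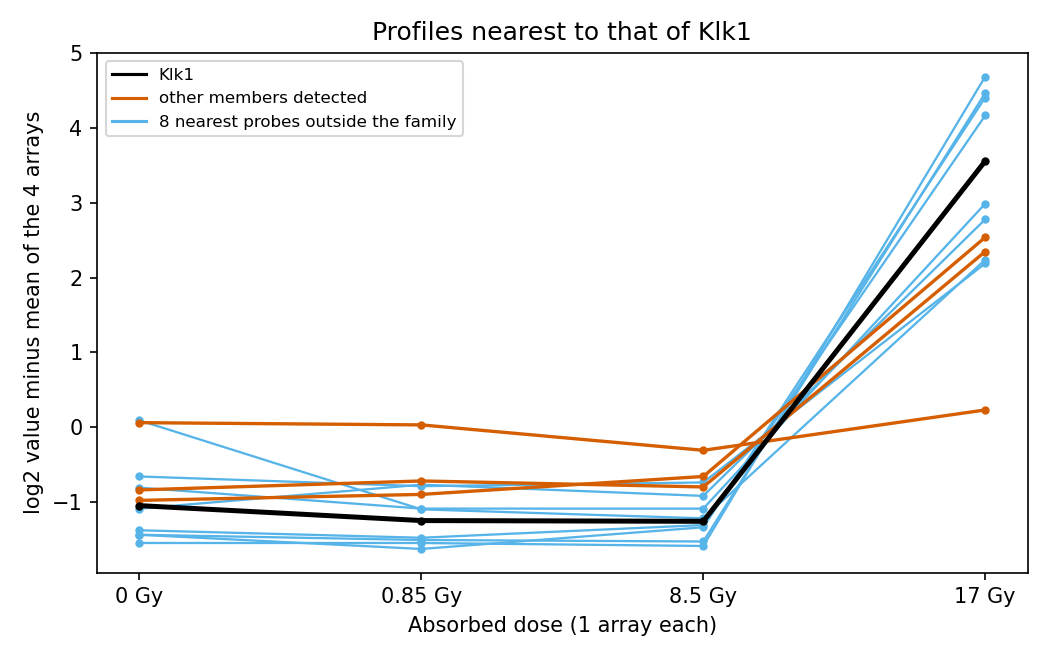
Log2 value minus the probe's mean over the 4 arrays (y axis) at each absorbed dose (x axis, 1 array each) for Klk1 (black), the detected probes of Klk1b5, Klk1b27 and Klk1b22 (orange) and the 8 nearest probes outside the family (blue). Klk1 goes from -1.05 at 0 Gy to 3.56 at 17 Gy, and the orange line that stays near 0 is Klk1b22.

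In all, 395 of 11189 named probes detected on at least 1 array were detected on the 17 Gy array alone, a share of 3.53%. Of these, 17 probes of 14 genes were also at least 2-fold above each other array, and 3 of the 17 were those of Klk1, Klk1b5 and Klk1b27.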

How the data were processed

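Biotin-labelled total RNA was hybridised to 4 Illumina mouse arrays, 1 for each absorbed dose, per the labels' protocols. The deposited non-normalized table held an intensity for each of 26512 probes, and a detection p-value beside it, per the file headers. A second table deposited by the authors held normalized intensity, also linear, whose sorted values were identical on all arrays. Non-normalized intensities were processed in R 4.3.3 with limma 3.58.1 and its neqc function: normexp background correction with the background inferred from the detection p-values, an offset of 16, quantile normalization and log2. The code was tested on simulated data with known folds put into probes well above background. That test did not cover a comparison with a probe at background, the case of the bounds given here. Probes of the value table, 25697 in all, were named from the platform's annotation. A probe entered a comparison with a detection p under 0.01 on at least 1 of the 2 arrays, and differences of at least 2-fold were counted. A bound is the bright array's value over the dim array's own value or its lowest detected value, whichever is higher. With 1 array at each dose no test was run, and precision is limited by the number of arrays.

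Named are all probes of the members, from each other list up to 6 detected genes, and the 8 probes nearest to Klk1. Genes named only to say that they were not detected were added to these. The members and lists were chosen with earlier results of these data known. Promoter windows are RefSeq's (GRCm38.p6), aligned with the local aligner of Biopython 1.88. Alternatives were no background correction, scaling to the 75th percentile, an offset of 50, the authors' values, a detection p under 0.05 and no detection filter.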

Additional observations from a re-analysis of the deposited data

How the results depend on the processing

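The counts of Klk1 cluster probes at least 2-fold higher or lower in the 5 comparisons were recomputed under all 6 alternatives. They were the same or within 1.5 times of the reported count in 60 of 60 recomputed counts. Much of this was fixed in advance. In comparisons without the 17 Gy array, the detection filter at 0.01 left no member probe to compare, so those counts could only be 0. With the same filter, the probes compared with the 17 Gy array were detected there alone, so 0 lower probes were nearly certain. The counts of higher probes at 17 Gy were 3 under every alternative, from the same Klk1, Klk1b5 and Klk1b27 probes. The log2 differences of the 4 detected probes kept their direction and their side of 2-fold in 48 of 48 recomputed values. These values rescale the same 4 probes, detected on the 17 Gy array alone, so the kept positive direction follows from that choice and is no independent check. Their sizes depended on the setting. At 17 Gy against 0 Gy they ran from 2.68 to 4.61 for Klk1, from 1.77 to 3.51 for Klk1b5, from 1.54 to 3.19 for Klk1b27 and from 0.05 to 0.17 for Klk1b22, with the lowest values where no background was subtracted. In the authors' normalized values the differences were 2.98 for Klk1, 2.06 for Klk1b5 and 1.82 for Klk1b27. No paired analysis was possible because each dose had 1 array, and no replicate could be left out. Probes at background limit what can be said: 6 of the 10 probes were not detected on any array, and the folds of the others are bounds that hold on the background-corrected scale with an offset of 16. With an offset of 50 the log2 difference at 17 Gy against 0 Gy was 3.34 for Klk1, 2.25 for Klk1b5 and 1.97 for Klk1b27.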

Other observations

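The 14 genes with a probe detected on the 17 Gy array alone and at least 2-fold above each other array were Klk1, Klk1b5, Klk1b27, Scgb1b27, Scgb2b26, Mucl2, Mup5, Pip, Prol1, Smgc, Epha4, Fcgr2b, Nudt7 and Vsig4. Probes of 1 gene disagreed in several of these families, not in the kallikreins alone. Of the secretoglobin genes, Scgb2b26 had 1 of 3 probes detected at 17 Gy and Scgb1b27 1 of 2, as did Klk1b5 and Klk1b27, while Prol1 had 2 of 2. The brightest probe of Scgb2b26 read 96, 113, 108 and 2941 in order of dose, and its others 84 and 87 at 17 Gy. These genes were listed after their values were seen.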
